A study of Rattus norvegicus with 11 samples.

Results

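The miR-379 to miR-410 cluster is a run of miRNA hairpins on rat chromosome 6, inside the imprinted Dlk1-Dio3 domain. Its members were taken by name: 48 of the 950 rows of the count table are arms of a hairpin of this cluster, 46 tagged sense and 2 tagged antisense. The rows span positions 143019886 to 143056419 of Rnor_5.0, all 46 sense rows on the plus strand. They belong to 26 hairpins, 22 of them with both arms. Small RNA was sequenced from pancreatic islets of Sprague-Dawley rats, with 5 libraries from control pups at postnatal day 10 (P10) and 6 from control males aged 3 months (adult). The labels give a sex for the adults only, so age and sex cannot be told apart, and whether 1 library stands for 1 animal or more is not in the labels.

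In imprinted domains only 1 parental copy of a gene is active, and the noncoding RNAs of the Dlk1-Dio3 domain, Meg3 and this miRNA cluster among them, are made from the maternal chromosome. The cluster is thought to be transcribed as a long noncoding transcript that is cut into many hairpins, each of which can leave a 5p and a 3p arm. A mature arm finds its targets mainly through its seed, bases 2 to 8. The cluster is best known from brain, where neuronal activity induces it and members such as miR-134, which limits the size of dendritic spines, act at synapses. It is also expressed in pancreatic islets, and mice that lack it adapt poorly to the metabolic demands of birth.

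RefSeq (GRCr8) held a mature sequence for 46 of the 48 members. The sequences below are those of the members whose levels or arm ratio differed between the ages, with the abundant arms for comparison. They are written 5′ to 3′ with the seed in capitals, and counts from base 1 start at the 5′ end.
miR-412-5p: uGGUCGACcagcuggaaagu
miR-412-3p: cUUCACCUgguccacuagccgu
miR-409a-3p (counted as miR-3581-5p antisense): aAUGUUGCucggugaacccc
miR-409a-5p (counted as miR-3581-3p antisense): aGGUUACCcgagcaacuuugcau
miR-329-5p: aGAGGUUUucugggucucuguuuc
miR-329-3p: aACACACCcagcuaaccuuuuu
miR-543-5p: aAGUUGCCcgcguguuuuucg
miR-543-3p: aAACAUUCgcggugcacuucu
miR-323-3p: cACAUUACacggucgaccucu
miR-300-3p: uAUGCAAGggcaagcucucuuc
miR-381-3p: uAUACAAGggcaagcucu
miR-487b-3p: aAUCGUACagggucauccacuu
miR-154-5p: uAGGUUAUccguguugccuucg
miR-496-3p: aGUAUUACauggccaaucucc
miR-411-5p: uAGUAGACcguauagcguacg
miR-541-5p: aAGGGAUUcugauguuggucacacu
miR-410-3p: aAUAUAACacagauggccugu
The 46 sequences carried 44 different seeds. GGUUGUC was the 1 seed shared, by 3 5p arms, miR-494-5p, miR-496-5p and miR-410-5p. Several neighbours differed by few bases. Over the 18 bases compared, miR-300-3p and miR-381-3p differed by 1 substitution, G4A, inside the seed. Over 21 bases, miR-379-5p and miR-411-5p differed by 7, of which G2A lies in the seed. The miR-376c-3p and miR-376b-3p seeds differed by A2U. How reads that map to several loci were counted is not stated, so reads shared between such near copies could have been split, and their levels are uncertain. The starts of both arms were spaced as in RefSeq for 16 of the 20 hairpins where this could be compared. They were not for miR-300, miR-381, miR-412 and miR-3581. The seeds of those rows, and of members of hairpins that could not be compared, rest on RefSeq names and hairpin places alone. The row length equalled the RefSeq length for 34 of the 46 members with a sequence.

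Both miR-3581 rows need a word on strand. The annotated miR-3581 hairpin lies on the minus strand opposite miR-409, and the rows hold reads antisense to it, which is the strand of miR-409. The row called 5p therefore lies on the side of miR-409a-3p and the row called 3p on the side of miR-409a-5p. These rows are called miR-409-3p and miR-409-5p from here on.

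Library totals ran from 1432929 to 4483017 counts, so 3 counts, the limit that a count of 0 allows, correspond to 0.623 to 2.54 CPM on the scale used below. Of the 48 members, 35 passed the abundance filter and were tested. The other 13 reached at most 12 counts in any library, and 10 of them are 5p arms. The levels below are in CPM (counts scaled to a common library size) after adjusting that size by TMM (trimmed mean of M-values), which centres the libraries on their bulk of features. Marker lists of cell types moved with age in part in these bulk libraries. For comparison, 29.5% of all tested features fell and 21.2% rose. Mesenchymal markers were miR-199a, miR-143, miR-145 and miR-10b, with no sense row for miR-214. They summed to between 93410 and 226200 CPM at P10 and between 25760 and 91990 CPM in adults, and 5 of their 7 tested arms fell. Islet endocrine markers summed to between 116000 and 168700 CPM at P10 and between 257000 and 329300 CPM in adults, with 6 of 9 arms higher and 1 lower. Neuronal and glial markers stayed between 188.2 and 233.8 CPM at P10 and between 150.0 and 259.0 CPM in adults. Of their 6 tested arms 1 fell and 0 rose, and miR-9a and miR-219a had no sense row. Acinar markers lay between 22.18 and 37.72 CPM in pups and between 28.63 and 127.1 CPM in adults, with 2 of 3 tested arms higher. Blood cell markers lay between 651.7 and 1392 CPM in pups and between 238.2 and 837.1 CPM in adults, with 1 of 5 tested arms lower. For both lists the ages overlapped. No sense row matched the endothelial list, and no marker row was at 0 in every library. Antisense rows were not read for these lists. The part of these cell types in the results below was not tested, and in bulk RNA fewer cells of a type and less RNA per cell cannot be told apart.

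A few arms made up most of the cluster. miR-541-5p, miR-411-5p, miR-410-3p and miR-381-3p together took 77.6% ± 3.97 of the member counts at P10 (SD, n = 5) and 76.65% ± 0.549 in adults (SD, n = 6). Ligation and PCR favour some sequences, so the order of different miRNAs within a library is less certain than the level of 1 miRNA between libraries. miR-411-5p, from the second hairpin of the run, was at 2458, 3896, 4078, 3972 and 4652 CPM in the P10 libraries (replicates 1, 3, 4, 5 and 6). In adults its lowest, median and highest values were 2855, 3219 and 3411 CPM, so P10 replicate 1 lay below every adult library and the other 4 above. miR-541-5p, near the far end, was at 2023, 4108, 3377, 3741 and 4460 CPM at P10 and between 3204 and 4297 CPM in adults (median 3990). miR-410-3p, the last member, averaged 1714 ± 104 CPM in the pups (SD, n = 5) and 1542 ± 110 CPM in the adults (SD, n = 6). For miR-381-3p the means were 1514 ± 150 and 1544 ± 132 CPM, pups first. None of these 4 arms passed the test between ages (edgeR quasi-likelihood test, Benjamini-Hochberg adjusted p from 0.134 for miR-411-5p to 0.817 for miR-381-3p), and the widest log2 change among them was -0.26 ± 0.14 (SE). With library totals in place of TMM factors miR-411-5p fell (log2 change -0.51, edgeR adjusted p = 0.00520), as it did without P10 replicate 1 (-0.38, adjusted p = 0.00309), and miR-410-3p fell with library totals (-0.41, adjusted p = 0.0106). miR-541-5p had a log2 change of 0.12, and of -0.12 with library totals. That of miR-381-3p was 0.03, and it was -0.23 with library totals. The plot of levels by library shows these arms, with miR-409-3p, above the rest.

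**Figure D1:**
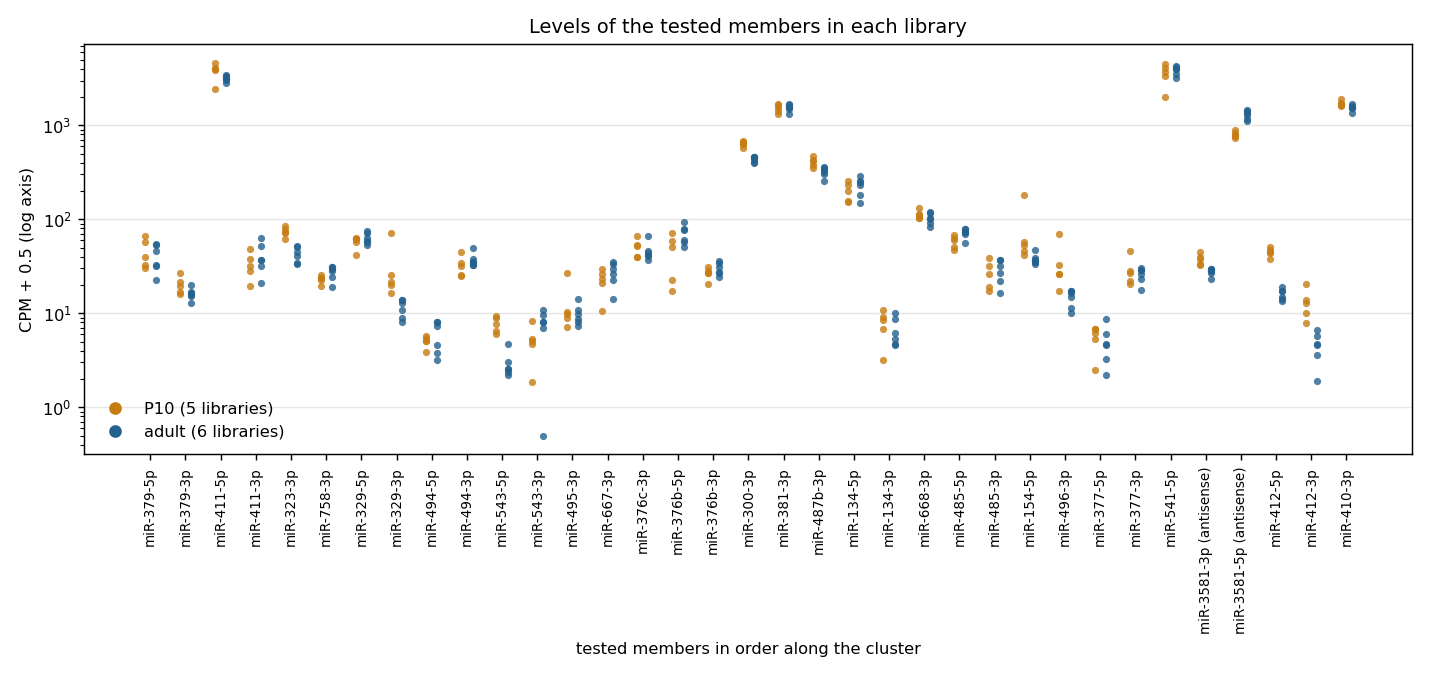
CPM plus 0.5 on a log axis for the 35 tested members in their order along the cluster, with 1 point per library, orange for the 5 P10 libraries and blue for the 6 adult libraries. The 4 leading arms sit above 1000 CPM at both ages. The colours separate for miR-323-3p, miR-329-3p, miR-543-5p, miR-300-3p, both miR-412 arms and the antisense miR-3581 rows.

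The first comparison asked how the members differ between suckling pups and mature animals. Of the 35 tested members 10 fell, 1 rose and 24 did not pass (edgeR adjusted p under 0.05 over all 457 features tested). Over all features 29.5% fell and 21.2% rose (50.8% in either direction), so the share of members that fell, 10 of 35, was near the background, and that of members that rose was below it. The median log2 change was -0.15 over the tested members and -0.11 over all features. For 8 members the CPM ranges of the ages did not overlap, against 30.0% of all features. Scaling moves these numbers for all features alike: where library totals served without TMM factors, the overall median was -0.37, 14 members fell and 1 rose, where 40.9% of all features fell and 11.8% rose. With libraries scaled to the summed counts of the members themselves, which gives each arm's change relative to its own cluster, 9 fell and 1 rose, against 25.4% and 20.1% of all features. Changes did not follow a gradient along the cluster: Spearman's rho between position and log2 change was -0.16 over the 35 members, given as a description, since members share libraries and a transcript.

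**Figure D2:**
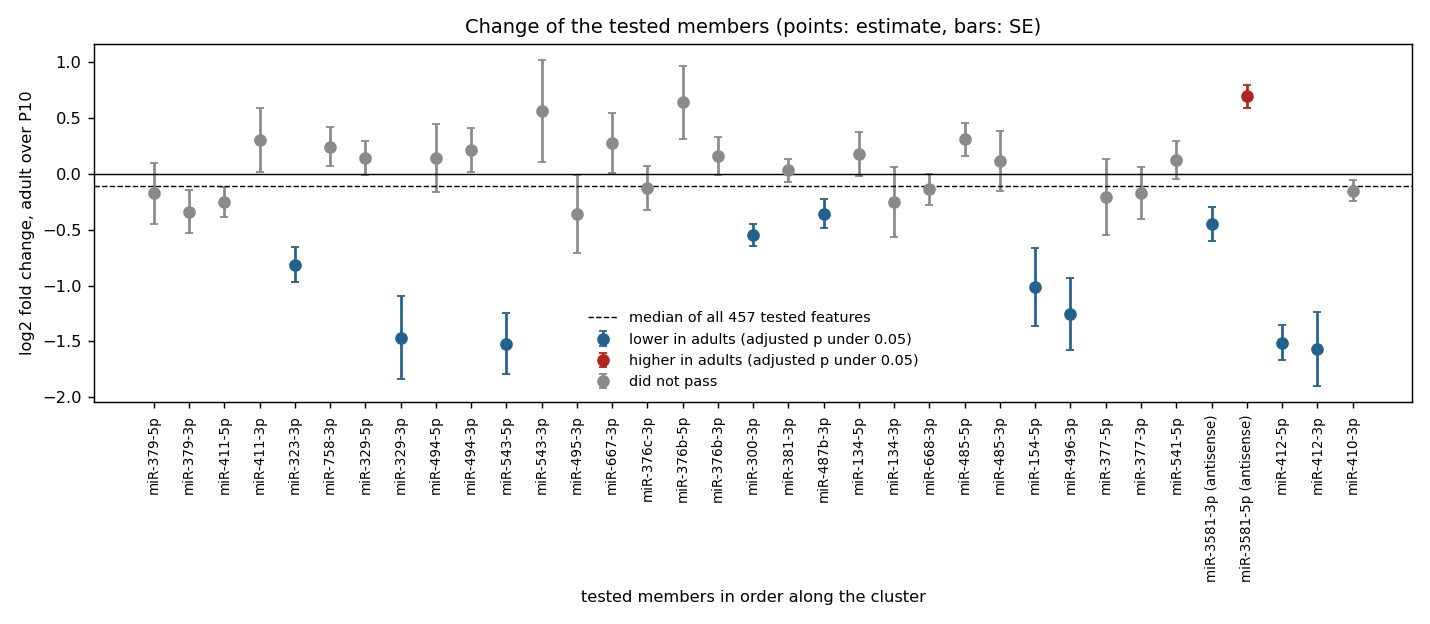
Log2 fold change, adult over P10, with its SE for the 35 tested members in their order along the cluster, and a dashed line at the median of all 457 tested features (-0.11). Members that fell are scattered from miR-323-3p to miR-412, and miR-409-3p, drawn as miR-3581-5p (antisense), is the 1 that rose.

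Both arms of miR-412, next to miR-409 in the run, fell. miR-412-5p was at 43.9, 37.6, 43.5, 46.4 and 49.9 CPM in the P10 libraries, and its lowest, median and highest adult values were 13.1, 15.5 and 18.3 CPM. The ages were far apart, with a 2.85-fold fall (log2 change -1.51 ± 0.16 SE, edgeR adjusted p = 4.71e-06). miR-412-3p was at 20.1, 13.4, 9.49, 7.41 and 12.3 CPM at P10 and between 1.38 and 6.11 CPM in adults (median 4.18). This is a 2.96-fold fall (log2 change -1.56 ± 0.33 SE, edgeR adjusted p = 0.00143), again without overlap, though the adult libraries held only 2 to 16 counts of it. The ratio of the arms did not differ detectably, with a log2 ratio of 5p to 3p of 1.83 ± 0.570 at P10 (SD, n = 5) and 1.81 ± 0.581 in adults (SD, n = 6), and a difference of -0.01 ± 0.31 (SE).

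At miR-409, the hairpin beside it, the arms moved in opposite directions. miR-409-3p was at 836.5, 782.9, 767.8, 895.1 and 737.4 CPM at P10, and its lowest, median and highest adult values were 1122, 1320 and 1444 CPM. Every adult library was above every P10 library, a 1.61-fold rise (log2 change 0.69 ± 0.10 SE, edgeR adjusted p = 0.000109). Its share of the member counts was 6.05% ± 1.20 at P10 (SD, n = 5) and 9.80% ± 0.489 in adults (SD, n = 6). miR-409-5p, the scarcer arm, was at 37.3, 32.3, 32.7, 43.9 and 39.3 CPM at P10 and between 22.5 and 29.4 CPM in adults (median 27.9). It fell 1.37-fold (log2 change -0.45 ± 0.15 SE, edgeR adjusted p = 0.0247), a call that ended under 8 of 21 alternatives, upper-quartile scaling (adjusted p = 0.183) and scaling to the members' own counts (adjusted p = 0.0650) among them. The ratio of the row called 5p to the row called 3p, which does not depend on scaling between libraries, had a log2 mean of 4.42 ± 0.148 at P10 (SD, n = 5) and 5.53 ± 0.253 in adults (SD, n = 6). That difference of 1.12 ± 0.18 (SE) passed the test (limma adjusted p = 0.000439 over 145 hairpins with both arms tested).

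Arm ratios were compared for the 11 member hairpins with both arms tested, and 3 changed, miR-409, miR-329 and miR-543, where 25.5% of all 145 hairpins did. At miR-329 the 5p arm did not pass (56.5 ± 8.91 CPM in pups, SD, n = 5, against 62.5 ± 8.48 CPM in adults, SD, n = 6) while the 3p arm fell. miR-329-3p was at 70.3, 16.1, 25.1, 19.7 and 21.0 CPM at P10 and between 7.56 and 13.4 CPM in adults (median 11.4). P10 replicate 1 stood far above the other pups, yet the lowest pup was still above the highest adult. The log2 change was -1.47 ± 0.37 (SE, edgeR adjusted p = 0.00510) and -0.90 without P10 replicate 1 (adjusted p = 0.00328). The log2 ratio of 5p to 3p was 1.08 ± 0.725 at P10 (SD, n = 5) and 2.45 ± 0.370 in adults (SD, n = 6), a difference of 1.37 ± 0.30 (SE, limma adjusted p = 0.00511), or 1.05 without P10 replicate 1 (limma adjusted p = 0.00495).

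At miR-543 the 5p arm fell and the 3p arm did not pass, both at few counts. miR-543-5p held 22, 9, 21, 31 and 40 counts in the P10 libraries and 2 to 11 counts in the adult ones. In CPM it was between 5.54 and 8.83 at P10 and between 1.69 and 4.20 in adults, without overlap, a 2.87-fold fall (log2 change -1.52 ± 0.27 SE, edgeR adjusted p = 0.000470). miR-543-3p averaged 4.54 ± 2.25 CPM in pups (SD, n = 5) and lay between 0 and 10.3 CPM in adults (median 7.58). Adult replicate 1 held 0 counts of it, which allows up to 2.54 CPM at its depth. The log2 ratio of 5p to 3p was 0.69 ± 0.590 at P10 and -0.96 ± 1.28 in adults, a difference of -1.65 ± 0.51 (SE, limma adjusted p = 0.0248). It was -1.68 with a prior count of 0.5, where it did not pass (limma adjusted p = 0.116), and it also did not pass without P10 replicate 3 (adjusted p = 0.0747) or without adult replicates 4 (0.0578), 5 (0.0516) or 6 (0.0569). Without adult replicate 1, the library with 0 counts of the 3p arm, the difference was -2.14 ± 0.32 (SE, limma adjusted p = 0.00053). For miR-376b and miR-411 the ratio did not pass (limma adjusted p = 0.118 and 0.124), with differences of 0.64 ± 0.31 and -0.50 ± 0.24 (SE); that of miR-411 passed without adult replicate 3 (-0.66, limma adjusted p = 0.0262).

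**Figure D3:**
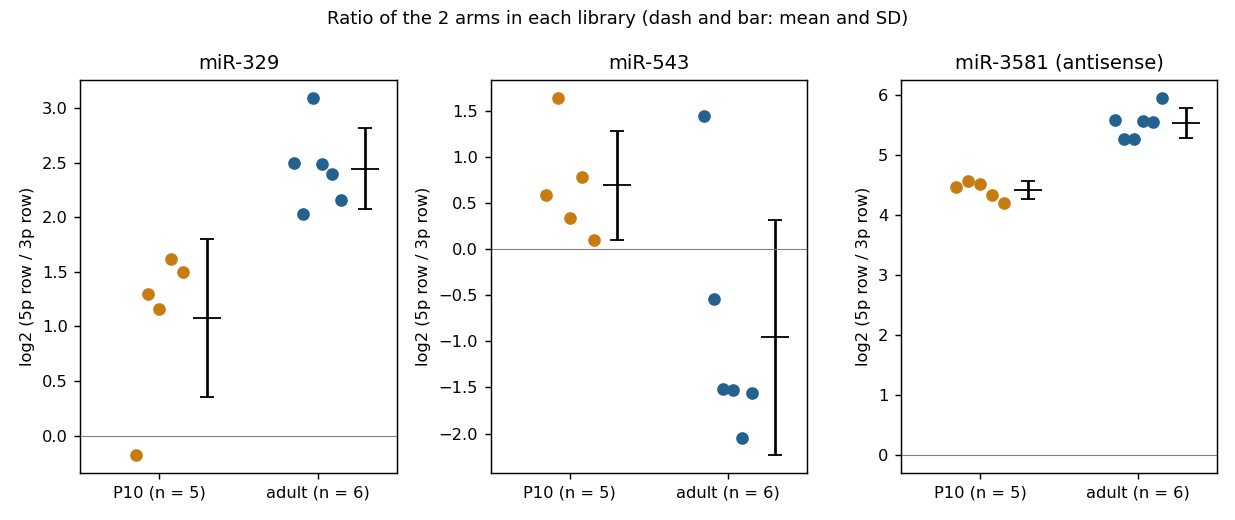
Log2 ratio of the row called 5p to the row called 3p in each library for miR-329, miR-543 and the antisense miR-3581 rows (the strand of miR-409), with mean and SD for 5 P10 and 6 adult libraries. The ages separate for miR-329 and the miR-3581 rows, while adult replicate 1 of miR-543 (1.44) lies among the P10 libraries.

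The near copies miR-300-3p and miR-381-3p, whose seeds differ by G4A, did not change alike. miR-300-3p was at 571.3, 659.3, 679.4, 634.1 and 638.0 CPM at P10, and its lowest, median and highest adult values were 395.3, 448.4 and 458.6 CPM. No adult library reached a P10 library, and the fall was 1.46-fold (log2 change -0.55 ± 0.10 SE, edgeR adjusted p = 0.000548). miR-381-3p, given above, did not pass. The log2 ratio of miR-300-3p to miR-381-3p was -1.25 ± 0.0999 at P10 (SD, n = 5) and -1.82 ± 0.105 in adults (SD, n = 6), a difference of -0.58 without overlap (two-sided exact permutation test, p = 0.00216, the smallest that splits of these libraries can give, and adjusted p = 0.0173 over 8 pairs). This ratio is not separate evidence from the fall of miR-300-3p, since miR-381-3p itself did not pass. The 8 pairs are those of tested members whose RefSeq sequences, compared from base 1 without gaps, differ at no more than 35% of bases. To each level 0.5 CPM was added. The ratio of miR-494-5p to miR-543-5p also passed, with a log2 mean of -0.60 ± 0.316 at P10 and 0.97 ± 0.872 in adults (exact permutation adjusted p = 0.0346), though the ages overlapped and both arms had few counts. It is not independent of the fall of miR-543-5p given above, since miR-494-5p itself did not pass (log2 change 0.14, edgeR adjusted p = 0.705). In the other 6 pairs the adjusted p ran from 0.173 to 0.89 (exact permutation), with differences of 0.06 for miR-379-5p over miR-411-5p and -0.29 for miR-376c-3p over miR-376b-3p. The limit of 35% was set after the levels had been seen.

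Among the remaining members that fell, miR-323-3p kept the ages apart. It was at 71.3, 61.8, 72.5, 78.3 and 85.0 CPM at P10 and between 33.0 and 51.3 CPM in adults (median 42.0), a 1.76-fold fall (log2 change -0.81 ± 0.16 SE, edgeR adjusted p = 0.000762). miR-487b-3p was at 382.4, 349.4, 422.3, 413.6 and 475.7 CPM at P10 and between 252.7 and 356.2 CPM in adults (median 325.6). Here P10 replicate 3 lay within the adult range, and the log2 change was -0.36 ± 0.13 (SE, edgeR adjusted p = 0.0330). The call of miR-487b-3p ended under 9 of 21 alternatives, with upper-quartile scaling giving -0.20 (adjusted p = 0.288). It also ended without P10 replicates 4, 5 or 6 or adult replicates 2 or 5.

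miR-154-5p and miR-496-3p, from adjoining hairpins, fell with P10 replicate 1 far above the rest, as for miR-329-3p. miR-154-5p was at 181.0 CPM in that library and at 45.0, 56.7, 41.3 and 53.4 CPM in the other pups, while adults lay between 33.2 and 46.7 CPM (median 35.9). P10 replicates 3 and 5 lay within the adult range. Its log2 change was -1.01 ± 0.35 (SE, edgeR adjusted p = 0.0280) and -0.40 without P10 replicate 1 (adjusted p = 0.0497). The call ended with upper-quartile scaling (adjusted p = 0.0511), with no filter (0.0625), with the replicate block (-0.76, 0.0938), and without adult replicates 5 (0.0566) or 6 (0.0517). miR-496-3p was at 69.4, 16.8, 25.6, 25.9 and 32.2 CPM at P10 and between 9.67 and 17.0 CPM in adults (median 15.1). P10 replicate 3 lay just inside the adult range, and the log2 change was -1.25 ± 0.32 (SE, edgeR adjusted p = 0.00547), or -0.83 without P10 replicate 1 (adjusted p = 0.00776).

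P10 replicate 1 was above all other pups for 8 of the 35 tested members (22.9%, against 22.3% of all tested features), below all of them for 8 (22.9% against 29.8%) and within their range for 19. These shares were near or below those of all features, and the library stood apart by the size of a few deviations. Relative to the median of the other 4 pups, miR-154-5p was 3.68 times as high, miR-329-3p 3.46 times, miR-495-3p 2.98 times and miR-496-3p 2.69 times, while miR-376b-5p was at 0.311 and miR-541-5p at 0.516 of it. miR-410-3p, at 1.00, lay at the median. More than 2-fold from the median of its age were 14.3% of the members in this library, against 7.88% of all tested features. In P10 replicate 3 these shares were 14.3% and 3.94%, with the 5 deviating members below the median, and that library was the lowest pup for 20 of the 35 members (57.1%, against 23.4% of all features). P10 replicate 6 was the highest pup for 15 of the 35 (42.9%, against 24.9% of all features). Without P10 replicate 6 the median log2 change was -0.007 over the tested members and -0.116 over all features. Without P10 replicate 1, 11 members fell and 1 rose, where 27.9% of all features fell and 21.2% rose.

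**Figure D4:**
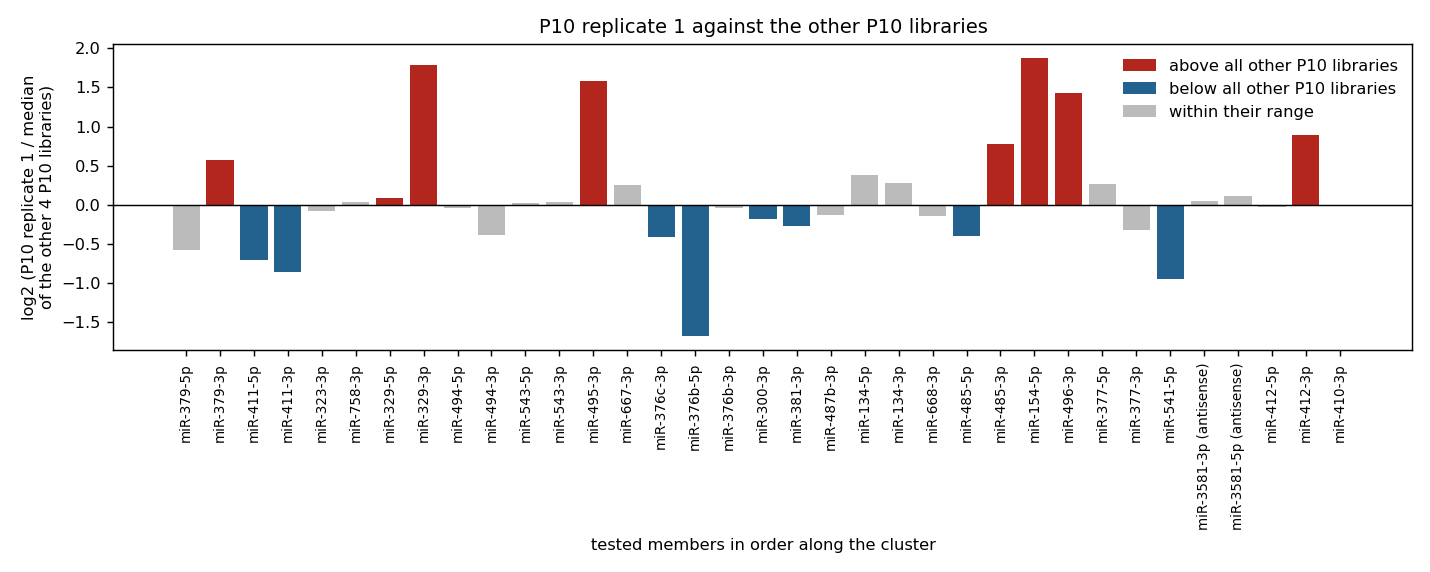
Log2 ratio of P10 replicate 1 to the median of the other 4 P10 libraries for each tested member, red where that library was above all other pups and blue where it was below them. miR-329-3p, miR-495-3p, miR-154-5p and miR-496-3p rise above 1 on the log2 scale (2-fold), and miR-376b-5p falls below -1.

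The members that did not pass included arms studied in neurons. miR-134-5p averaged 199 ± 45.0 CPM in the pups (SD, n = 5) and 225 ± 51.2 CPM in the adults (SD, n = 6, log2 change 0.18 ± 0.20 SE, or -0.09 with library totals). miR-485-5p, a regulator of synaptic strength, averaged 57.1 ± 8.58 and 71.0 ± 8.72 CPM, pups first (edgeR adjusted p = 0.0967). It passed as higher with DESeq2 size factors (log2 change 0.40, edgeR adjusted p = 0.0360), with upper-quartile scaling (0.47, adjusted p = 0.0251), by DESeq2's test (0.39, adjusted p = 0.0172) and without P10 replicate 5 (adjusted p = 0.0495), but not with library totals (0.04, adjusted p = 0.869). The means of miR-668-3p were 112 ± 12.3 and 102 ± 14.0 CPM. At the first hairpin, miR-379-5p was at 44.5 ± 15.7 and 39.6 ± 13.1 CPM and miR-379-3p at 19.7 ± 4.39 and 15.7 ± 2.30 CPM, with adjusted p of 0.599 and 0.150 by edgeR. With library totals miR-379-3p and miR-668-3p passed as lower (log2 change -0.62 and -0.41, edgeR adjusted p = 0.0259 and 0.0352). miR-376b-5p, of a family known for RNA editing in its seed, was at 16.8, 22.2, 50.4, 57.8 and 71.7 CPM at P10 and between 49.9 and 92.2 CPM in adults (edgeR adjusted p = 0.122). The pups of this arm spread over a wider range than the adults, and it passed as higher without P10 replicate 6 (log2 change 0.88, edgeR adjusted p = 0.0345) and with the replicate block (0.84, adjusted p = 0.0195).

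As a share of all counts in a library, the 46 sense rows together took 1.20%, 1.21%, 1.472%, 1.525% and 1.605% at P10 and between 0.957% and 1.22% in adults, each with a Wilson 95% interval at most 0.0339 percentage points wide that covers counting error only. The P10 libraries with the lowest shares, replicates 1 and 3, overlapped the highest adult library. The mean was 1.40% ± 0.188 at P10 (SD, n = 5) and 1.10% ± 0.100 in adults (SD, n = 6), so adults stood -0.303 percentage points from pups (exact permutation test, two-sided, p = 0.00649). In the same libraries miR-375-3p, the leading miRNA of islet endocrine cells, took 15.97% ± 3.34 at P10 and 26.48% ± 1.99 in adults. As a share of the counts without miR-375-3p the cluster was at 1.67% ± 0.263 and 1.50% ± 0.165 (exact permutation p = 0.190), and per TMM-adjusted library size at 1.27% ± 0.187 and 1.19% ± 0.0725 (exact permutation p = 0.348). The difference in share therefore passed the test only against the full library total.

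**Figure D5:**
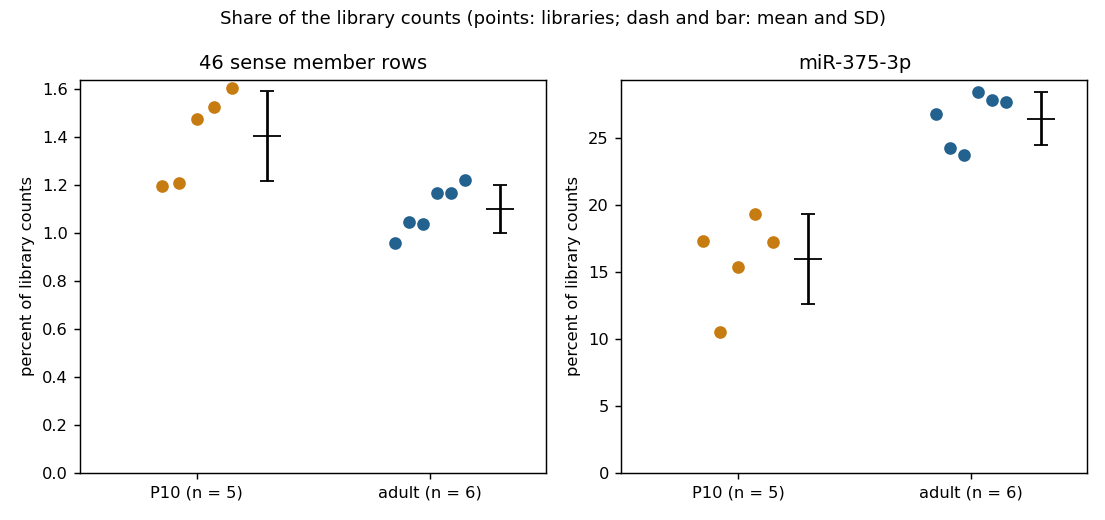
Percent of library counts held by the 46 sense member rows (left) and by miR-375-3p (right) in each library, with mean and SD for 5 P10 and 6 adult libraries; both axes start at 0. The cluster shares overlap between 1.20% and 1.22%, and those of miR-375-3p do not overlap.

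Like miR-409, some hairpins of the cluster had no sense row under their own name and were read through rows named for the opposite strand. Between the outer members lay 12 further antisense rows, named for minus-strand hairpins that RefSeq places opposite miR-299, miR-380, miR-376a, miR-539, miR-382 and miR-369. Their reads, like those of the miR-409 rows, are from the strand of the cluster, and 10 of the 12 were tested. One fell, miR-3595-3p antisense at miR-376a, from 61.5 to 41.8 CPM (log2 change -0.56 ± 0.21 SE, edgeR adjusted p = 0.0378), 0 rose, and the median log2 change was -0.30. The rows at miR-382 and miR-369 were the fullest, with miR-3592-3p antisense at 230 and 219 CPM and miR-3578-3p antisense at 213 and 236 CPM at P10 and in adults. Of 4 tested sense rows of miR-666 and miR-6331, which lie in the same span, 1 rose and 1 fell. Both sets are small, and 29.5% of all features fell and 21.2% rose.

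The rest of the Dlk1-Dio3 domain was read from a list of 18 other miRNAs, of which 13 had sense rows. Among its 20 tested arms were 4 that fell, 3 that rose and 13 that missed the threshold, with a median log2 change of 0.02. Over all features 29.5% fell and 21.2% rose, with a median of -0.11, so neither count exceeded the background. miR-431-5p, from the group antisense to Rtl1, fell from a mean of 1058 ± 148 CPM (SD, n = 5) to one of 676 ± 28.2 CPM (SD, n = 6; log2 change -0.65 ± 0.11 SE, edgeR adjusted p = 0.000245). miR-493-5p fell more (log2 change -1.21 ± 0.23 SE, edgeR adjusted p = 0.000669). miR-370-3p, encoded upstream of the cluster, rose (log2 change 0.54 ± 0.21 SE, edgeR adjusted p = 0.0425). The abundant miR-127-3p, at 95842 and 86928 CPM, did not pass (edgeR adjusted p = 0.220).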

How the data were processed

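Total islet RNA was made into small RNA libraries with Illumina TruSeq small RNA kits, per the labels' protocols. Raw counts for each mature arm at each locus were deposited, on rn5 (Rnor_5.0) per the file headers; the submitters' processing notes name edgeR and DESeq with no role. No source used here names the aligner or the counting rules. Names with several rows were taken once per library, at the highest row, which gave 898 features, of which 457 passed filterByExpr. Ages were compared with edgeR 4.0.16 (robust quasi-likelihood, TMM, Benjamini-Hochberg adjustment, threshold 0.05), arm ratios with limma 3.58.1 (prior count 2), and the cluster share with a two-sided exact permutation test, in R 4.3.3 and Python. DESeq2 1.42.0, other scalings and filters, a replicate block and leaving out each library were alternatives. The code was tested on simulated data. Within an age, every pair of libraries differed beyond sampling noise (chi-square over degrees of freedom of at least 13.0). The labels call the libraries biological replicates.

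Named members are the 10 most abundant, those that passed, both ends of the cluster and the 5 hairpins with the smallest arm ratio p. miR-495-3p, miR-376c-3p, miR-494-5p and the genes named outside the cluster, miR-375-3p apart, were chosen after their values were seen. The members and lists were chosen with earlier results of these data known.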

Additional observations from a re-analysis of the deposited data

Results flagged for a closer look

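In 62 groups of libraries (among them each named member and arm ratio at each age), 6 had 1 library far from the others by Dixon's criterion. Chance gives about 1 in 20. P10 replicate 1 accounted for 3 of them: miR-154-5p at 181.0 CPM with the other pups between 41.31 and 56.7, miR-329-3p at 70.34 CPM with the others between 16.13 and 25.06, and the log2 ratio of 5p to 3p of miR-329 at -0.178 with the others between 1.156 and 1.619. miR-329-5p was at 40.99 CPM in P10 replicate 3 and between 56.7 and 62.09 CPM in the other pups. miR-543-5p was at 4.199 CPM in adult replicate 2 and between 1.693 and 2.552 CPM in the other adults. miR-543-3p was at 0.0 CPM in adult replicate 1 and between 6.489 and 10.33 CPM in the other adults.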

How the results depend on the processing

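Of the 11 members that passed, 8 passed under every alternative tested and 3 (miR-487b-3p, miR-154-5p and miR-409-5p) did not under some, while the direction of all 11 was the same throughout. Leaving out each library in turn gave 7 to 11 members lower, 1 to 2 higher, 2 to 4 hairpins with a changed arm ratio, and a difference in cluster share of -0.354 to -0.252 percentage points. In those runs 23.9% to 30.2% of all features fell and 18.7% to 21.2% rose. Over all hairpins, the share with a changed arm ratio was smallest without P10 replicate 3 (33 of 152). It was largest without adult replicate 3 (45 of 148). The number of members higher was 2 with DESeq2 size factors, with upper-quartile scaling, by DESeq2's test and with the replicate block. Of all features 26.5%, 27.8%, 27.8% and 20.4% rose in these settings, in that order. Without filtering, 7 of 48 members fell and 1 rose, where 13.4% of all 898 features fell and 10.8% rose. The difference in cluster share was -0.177 points without miR-375-3p in the total (exact permutation p = 0.190), -0.0824 per TMM-adjusted size (p = 0.348) and -0.274 with the miR-409 rows, a choice made after seeing the data (p = 0.0303). Log2 changes reversed under some alternative for 16 of the 35 tested members, none of which had passed; the 8 of them outside the naming rule had no adjusted p under 0.6449 where they reversed. The other 8 are named: with library totals miR-329-5p (-0.14), miR-376b-3p (-0.11), miR-381-3p (-0.23), miR-134-5p (-0.0878) and miR-541-5p (-0.12), with upper-quartile scaling miR-668-3p (0.027) and miR-410-3p (0.0098), and at a mean CPM of at least 10 miR-381-3p (-0.0047). Leaving out 1 library gave -0.0195 (without P10 replicate 1) to 0.0765 for miR-381-3p, with -0.0026 without adult replicate 4, -0.0261 (without P10 replicate 1) to 0.2143 for miR-541-5p, and -0.2789 to 0.0028 (without P10 replicate 6) for miR-379-5p. The cause of these changes was not tested. Whether replicate numbers pair the ages is not in the labels. Correlations of same-numbered libraries ran from -0.214 to 0.204 and 0 of 5 pups matched their own number best, which cannot settle it. With the replicate block 7 members fell and 2 (miR-409-3p and miR-376b-5p) rose, 3 arm ratios changed, and the difference in share was -0.292 points (exact permutation p = 0.0625, the smallest it can give). Of all features 24.5% fell and 20.4% rose with this block, and the arm ratio changed for 36 of all 145 hairpins. Arms of a few CPM, such as those of miR-543, rest on few counts, and 13 members were too scarce to test.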
